A study of Rattus norvegicus with 44 samples.

Results

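The comparison set choroid plexus of rats 1 day after amphetamine (AMPH) against choroid plexus 1 day after environmentally-induced hyperthermia (EIH). Its members were chosen by the source label: 4 pools labelled AMPH at 1 day and 4 pools labelled EIH at 1 day, which is 8 of the 44 arrays of the series. Every pool held choroid plexus from 3 male Sprague-Dawley rats of the NCTR colony, 3 months of age, hybridised to 1 single-colour Agilent array. The AMPH rats are labelled as having amphetamine toxicity, with the dose not given in the sources used here, and the EIH rats as hyperthermic from their environment. Pooling hides the spread between rats. No choroid plexus saline group of 1 day was analysed here, so the comparison contrasts both exposures with each other and neither with an untreated group of the same time. Pools are numbered 1 to 4 within a group in the order of the files, and a number pairs nothing between groups. The other choroid plexus pools of the series were 4 of saline, 4 of EIH and 4 of AMPH at 3 h.

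The choroid plexus is a fold of vascular connective tissue in the brain ventricles, covered by a secretory epithelium that makes cerebrospinal fluid and forms the barrier between blood and that fluid. Both exposures raise body temperature, and heat and protein damage switch on chaperone genes through heat shock factor, with protein-folding genes of the endoplasmic reticulum (ER) as a related response. Immediate early genes and glucocorticoid targets are further acute stress readouts, and the plexus is also a route by which blood leukocytes reach the ventricles.

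The labels conflict for one group. The 4 EIH pools are titled as controls, whereas their source and treatment labels say EIH, and they were used as EIH. Of the 10 rat numbers in these titles, 3 also stand on blood arrays labelled EIH at 1 day and 0 on blood saline arrays. If the titles are right, the comparison is of amphetamine against control tissue. EIH pools 2 and 3 share 1 rat number, and EIH pools 3 and 4 share another. Further numbers stand on both EIH pool 3 and an AMPH pool of 3 h, on both EIH pool 4 and an EIH pool of 3 h, and on both AMPH pool 2 and a saline pool of 3 h, 5 recurring numbers in all. Whether these numbers are errors in the titles is not known here. If pools do share rats they are not independent samples, and the p-values below take them as independent.

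AMPH pool 2 stood apart from the other arrays. Its median correlation with the other choroid plexus arrays was 0.858, against 0.937 to 0.965 for the other 7 pools of 1 day, and 2.97% of its probes lay more than 3 log2 units from their median over the choroid plexus arrays. The main counts and differences are therefore given with all 8 pools and without AMPH pool 2. Between 1.21% and 5.21% of the probes were blank on a pool.

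With all 8 pools, 0 of 10204 genes (0%) passed an adjusted p of 0.05 in limma, and the lowest adjusted p was 0.575. An unadjusted p under 0.05 was reached by 556 genes (5.45%), of which 203 (1.99%) were higher and 353 (3.46%) lower after AMPH. With the compared groups fitted alone it was reached by 339 genes (3.32%), 183 higher and 156 lower. That fit without AMPH pool 2 gave 508 genes (5.04%), 201 higher and 307 lower. The excess of lower genes with all pools thus depended on the fit. Without AMPH pool 2, 0 of 10076 genes (0%) passed in limma, with a lowest adjusted p of 0.304, and 541 genes (5.37%) had an unadjusted p under 0.05. With array weights, which count a deviating array less, 3 genes were called in either fit (0.0294% and 0.0298%): Brip1, Nat3 and Serpini2. The 95% interval of the difference lay within 1 log2 unit of 0 for 5835 genes (57.2%) with all pools and for 6504 genes (64.5%) without AMPH pool 2, and the median standard error was 0.282 and 0.227. Since no gene passed, the values below describe these pools. Most genes are named by rule, and Spp1, Ibsp, Col1a2, Pcp2, Hspe1, Bag3, Creld2, Manf, Fos, Piwil1 and Serpini2 were chosen after their values were seen.

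**Figure D1:**
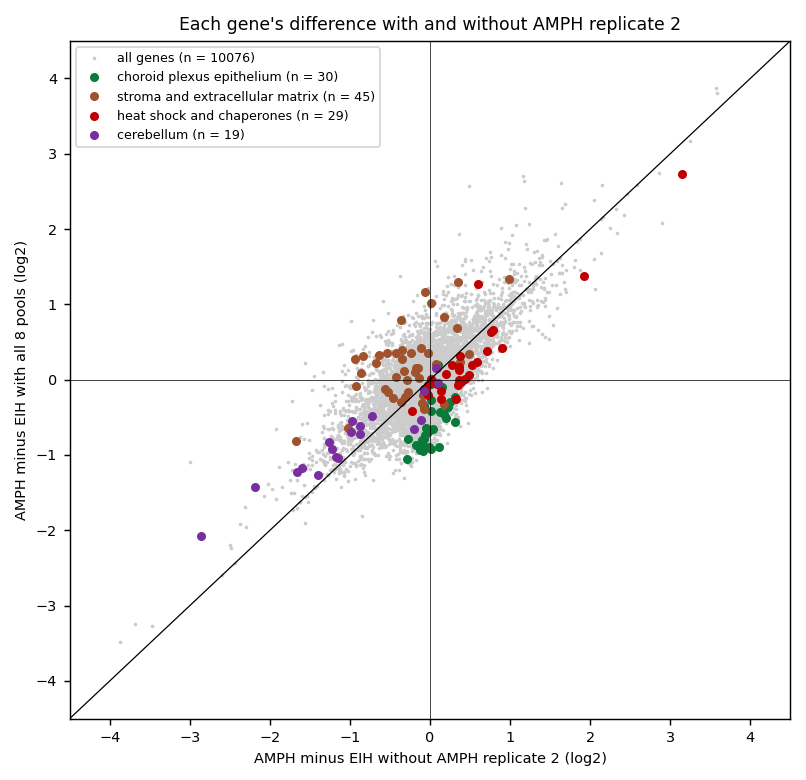
AMPH minus EIH at 1 day for each of 10076 genes, in log2 units, without AMPH pool 2 (horizontal) and with all 8 pools (vertical), with 4 gene lists coloured and the line of equal values; 1 gene lies outside the axes. Epithelium genes mostly lie below the line, with a median of -0.60 with all pools and 0.01 without AMPH pool 2, and stroma genes mostly lie above it.

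For genes of the choroid plexus epithelium the difference between the groups depended on a single pool. Of 30 measured epithelium genes, 28 were lower after AMPH with all pools (median difference -0.60), whereas 17 were higher and 13 lower without AMPH pool 2 (median 0.01), against a median of -0.04 over all genes. Called genes numbered 0 in both fits. Folr1, the folate receptor that carries folate into cerebrospinal fluid, had log2 intensities of 13.59, 14.02, 14.02 and 13.80 in EIH pools 1 to 4 and of 14.23, 10.66, 14.09 and 14.20 in AMPH pools 1 to 4. AMPH pool 2 lay far below the other 7 pools, and the other 3 AMPH pools lay above every EIH pool. The difference was -0.56 ± 0.53 (SE) with all pools and 0.31 ± 0.11 without pool 2 (limma, adjusted p = 0.891). In bulk tissue, fewer cells of a type and less RNA per cell cannot be told apart.

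Kcne2 and Kl were also lowest in AMPH pool 2. Kcne2, a potassium channel subunit of the apical membrane, read 12.25, 12.23, 12.42 and 12.39 in the EIH pools and 11.94, 8.97, 12.24 and 11.91 in the AMPH pools. AMPH pools 1 and 4 lay below every EIH pool and AMPH pool 3 within their range, and its difference was -1.06 ± 0.47 with all pools and -0.29 ± 0.13 without pool 2 (limma, adjusted p = 0.902). Kl, which encodes the anti-ageing hormone klotho, read 11.82, 11.57, 12.03 and 11.45 after EIH and 11.44, 8.56, 11.73 and 11.69 after AMPH. Apart from AMPH pool 2 the ranges of Kl overlapped, with a difference of -0.10 and a 95% interval of -0.41 to 0.22, against -0.86 (-1.87 to 0.14) with all pools. Aqp1, the apical water channel, gave 0.15 (interval -0.19 to 0.50), Slc4a5, a bicarbonate transporter, -0.01 (-0.57 to 0.56), and Cldn1, a tight junction protein, -0.03 (-0.35 to 0.29), all without pool 2. With all pools these 3 differences were -0.10, -0.89 and -0.69. Without pool 2 a 2-fold difference lay outside the interval for Kl and for these 3 genes. Ttr, the thyroid hormone carrier that is the hallmark transcript of the tissue, lay between 15.96 and 15.98 in all 8 pools, at the top of the intensity scale, where a change cannot be read. Igf2, a growth factor of the plexus, stood at 15.96 to 15.98 in 7 pools and at 15.70 in AMPH pool 2.

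The tissue label could be checked against 12 epithelium markers, all of them measured in every pool. Their summed intensity was 296000 to 314000 in the EIH pools and 296000 to 312000 in AMPH pools 1, 3 and 4, but 130000 in AMPH pool 2. Ttr is among these markers and lay at the top of the intensity scale in all 8 pools, so each sum holds a nearly fixed part. The sum was the lowest in AMPH pool 2, and it cannot show how low each other marker was there.

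In AMPH pool 2 the genes of several other tissues were high. Relative to each gene's median over the 8 pools, its list level was -2.57 for epithelium, -2.44 for motile cilia and ependyma and -0.91 for the respiratory chain. The same pool stood at 1.49 for stroma and extracellular matrix, 1.69 for macrophages, 1.65 for neutrophils, 1.33 for erythroid genes and 1.77 for platelet genes, and at -0.07 over all genes. A bone list, chosen after values were seen, stood at 1.50. Spp1, a phosphoprotein of bone matrix, read 14.11 in AMPH pool 2 and 7.18 to 10.15 in the other pools. Ibsp, the bone sialoprotein, read 11.38 there and at most 7.16 in the others.

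EIH pool 1 shared a part of this layout. Col1a2, a chain of type I collagen, read 15.54, 12.51, 12.25 and 12.38 in the EIH pools and 12.12, 15.66, 12.78 and 11.82 in the AMPH pools. Bglap, the osteoblast protein osteocalcin, read 14.05, 9.46, 7.95 and 7.41 after EIH and 5.37, 14.33, 9.40 and 5.37 after AMPH. For both genes EIH pool 1 and AMPH pool 2 were the highest, 1 in each group. The 6 stroma markers summed to 81600 in EIH pool 1 and 134000 in AMPH pool 2, and to between 11500 and 15400 in the other 6 pools. EIH pool 1 correlated with AMPH pool 2 at 0.898 over all probes. Of 45 stroma genes, 30 were higher after AMPH with all pools (median 0.15), whereas 33 were lower without pool 2 (median -0.24), and 23 were lower (median -0.02) once EIH pool 1 was left out as well, and the median was -0.10 without AMPH pool 4 in its place. The part that tissue taken with the plexus had in any other result was not tested.

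**Figure D2:**
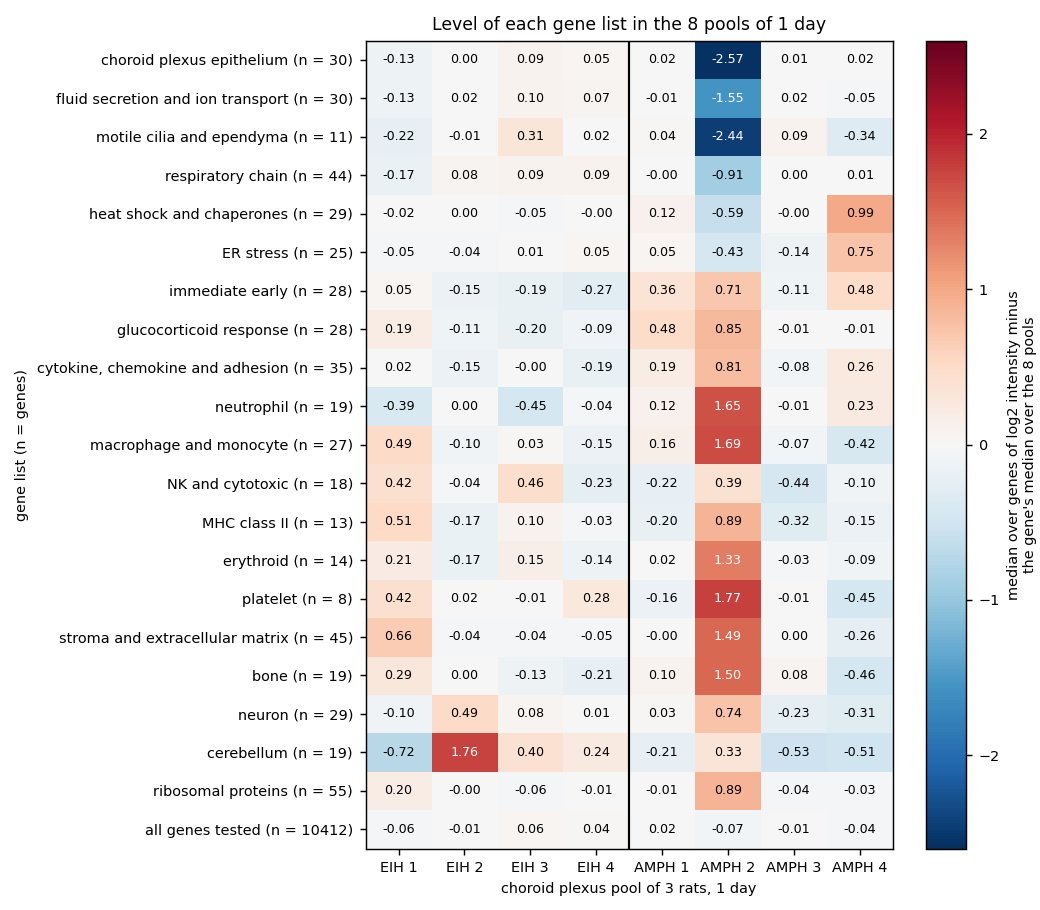
Median log2 level of 20 gene lists and of all genes in each pool of 1 day, relative to each gene's median over the 8 pools; n is the number of genes, red is higher and blue lower. AMPH pool 2 is low for epithelium (-2.57) and high for stroma (1.49), EIH pool 2 is high for cerebellum genes (1.76), and AMPH pool 4 is high for heat shock genes (0.99).

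**Figure D3:**
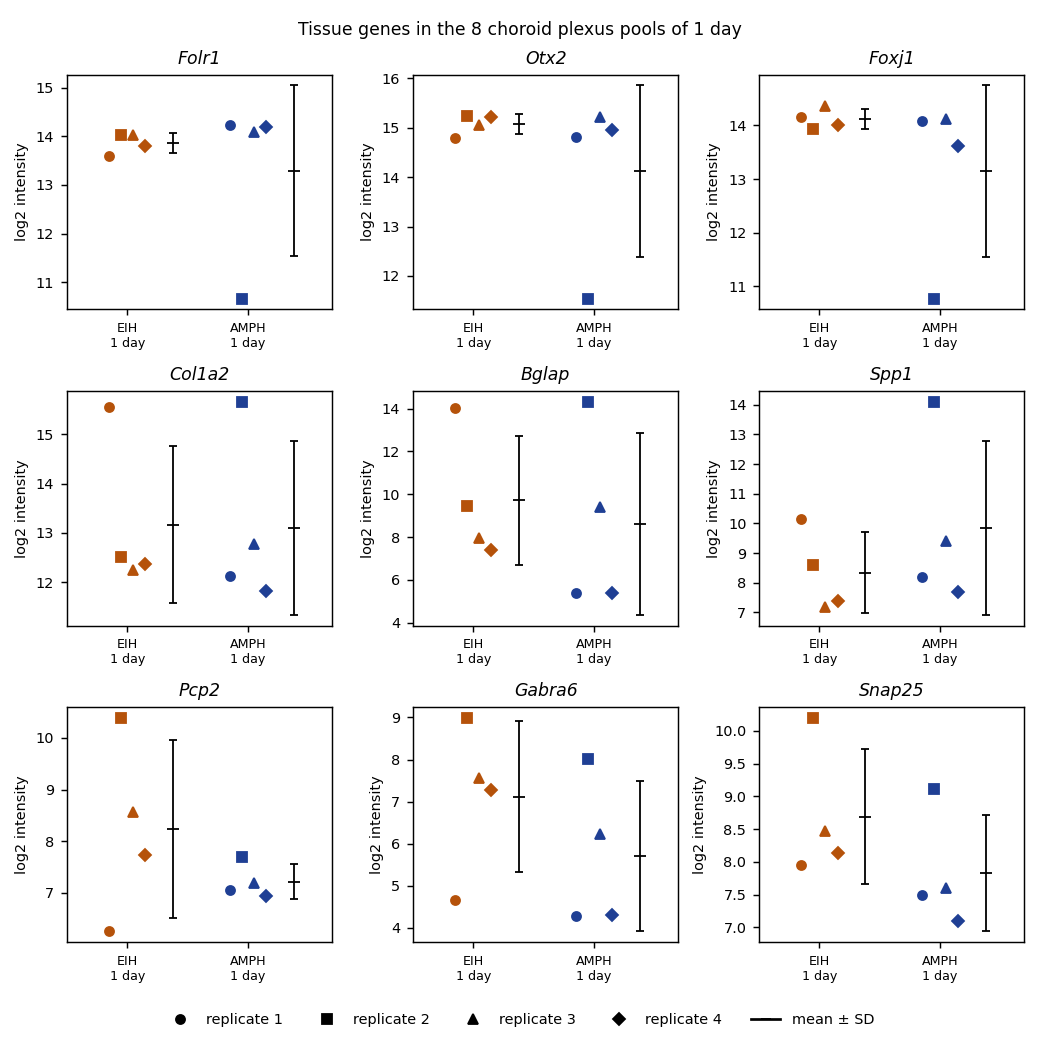
Log2 intensity of 9 genes in the pools of 1 day, with a symbol for each replicate and the group mean ± SD (n = 4) beside it. The top row holds epithelial and ciliary genes, the middle row matrix and bone genes and the bottom row neural genes; AMPH pool 2 is the lowest in the top row, and EIH pool 1 or 2 leads its group in the other rows.

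EIH pool 2 was high in genes of the cerebellum, which borders the fourth ventricle and its plexus. The cerebellum list was chosen after values were seen. Of its 19 genes, 14 were highest in EIH pool 2, beside 575 of all 10412 genes. The level of the list was 1.76 there, against -0.72 to 0.40 in the other 7 pools. Pcp2, a Purkinje cell gene, read 6.25, 10.39, 8.57 and 7.74 in the EIH pools and 7.05, 7.69, 7.19 and 6.93 in the AMPH pools. Gabra6, a receptor subunit of granule cells, read 4.66, 8.99, 7.55 and 7.28 after EIH and 4.28, 8.01, 6.22 and 4.30 after AMPH. EIH pools 2, 3 and 4 were above AMPH pools 1, 3 and 4 for both genes, and EIH pool 1 was not.

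Car8, a carbonic anhydrase-related protein of Purkinje cells, was among the named genes of lowest p without AMPH pool 2. It read 5.20, 8.95, 7.50 and 6.63 after EIH and 4.93, 7.31, 3.82 and 3.89 after AMPH. Without pool 2 every AMPH value lay below every EIH value, with AMPH pool 1 close to EIH pool 1, and the difference was -2.86 ± 0.65 (limma, adjusted p = 0.846), or -2.08 ± 0.74 with all pools. Over the cerebellum genes, 18 of 19 were lower after AMPH with all pools (median -0.72) and 17 without pool 2 (median -0.99), and the median was -0.54 without EIH pool 2 too. Snap25, a synaptic vesicle fusion protein, read 7.95, 10.20, 8.47 and 8.13 after EIH and 7.50, 9.12, 7.60 and 7.09 after AMPH. It lay higher in each EIH pool than in AMPH pools 1, 3 and 4, with EIH pool 2 the highest of all (difference -0.86 ± 0.54 with all pools and -1.29 ± 0.53 without AMPH pool 2, or -0.79 without EIH pool 2 as well). Of 28 neuronal genes, 17 were lower after AMPH with all pools (median -0.11) and 21 without pool 2 (median -0.29), and the median was -0.17 without EIH pool 2 too.

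Most chaperone genes were highest in AMPH pool 4, and a few were also high in AMPH pool 1. Heat shock factor binds inverted repeats of the unit GAA. Promoters of 4 genes that were high together are shown, chosen after their values and matches were seen, from RefSeq annotation of build GRCr8, as a stretch around repeats found within the 250 bases before the start, on the strand of the gene, with the matches in capitals.
Hsph1, chr12:10427312-10427364, plus strand: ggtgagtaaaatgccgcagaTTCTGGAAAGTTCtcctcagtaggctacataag
Hspe1, chr9:64084242-64084299, plus strand: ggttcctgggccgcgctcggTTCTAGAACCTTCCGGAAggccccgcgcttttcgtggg
Dnajb1, chr19:41431142-41431172, minus strand: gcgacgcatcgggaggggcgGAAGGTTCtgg
Hspb1, chr12:26432383-26432450, minus strand: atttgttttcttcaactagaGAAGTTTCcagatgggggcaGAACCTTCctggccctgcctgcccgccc
The capitals in Dnajb1 and Hspb1 are matches to a pair of units, GAANNTTC or TTCNNGAA. Those in Hsph1 and Hspe1 are matches to 3 units, that is either pair followed, after any 2 bases, by a further unit facing the other way. The pattern of each pair, with any base at N, reads the same on both strands. Every match to 3 units contains 2 pairs, and the matches of Hspe1 overlap. The window of Hsph1 holds 3 pairs, of which 1 lies outside the stretch shown. Of other chaperone genes looked at in the same way, Bag3 held 1 pair and Hspa1a 0, and Hspa1b was not matched. A pair was found in 4534 of 33469 promoters (13.5%) and 3 units in 222 (0.663%). Among the 26 heat shock and chaperone genes that matched the table, 13 (50%) held a pair and 4 (15.4%) held 3 units.

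Hspa1b, the inducible 70-kDa chaperone, had log2 intensities of 10.06, 9.70, 9.17 and 9.03 in the EIH pools and 12.67, 10.95, 10.18 and 15.06 in the AMPH pools. All 4 AMPH pools lay above all EIH pools, pool 4 by far the most and pool 3 barely. The difference was 2.73 ± 1.09 with all pools (limma, adjusted p = 0.756) and 3.15 ± 1.19 without pool 2 (adjusted p = 0.891), and a second probe of the gene gave 0.31. Leaving out AMPH pool 4 as well brought it to 1.94.

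Hspb1, the small chaperone that protects the actin cytoskeleton, read 11.48, 11.74, 11.38 and 11.67 after EIH and 13.21, 11.33, 11.55 and 15.69 after AMPH. AMPH pools 1 and 4 were above every EIH pool, and AMPH pools 2 and 3 were not. Its difference was 1.38 ± 0.72 with all pools, 1.92 ± 0.72 without pool 2 (limma, adjusted p = 0.891) and 0.81 without pool 4 too. Hsph1, a partner that recharges the 70-kDa chaperones, read 9.51, 9.38, 9.28 and 9.36 after EIH and 9.78, 8.33, 9.48 and 11.60 after AMPH. Hspe1, the mitochondrial co-chaperone, read 14.00, 14.07, 13.96 and 14.14 after EIH and 14.15, 13.30, 13.98 and 15.54 after AMPH, and Dnajb1, which hands substrates to the 70-kDa chaperones, 10.86, 10.85, 10.70 and 10.52 after EIH and 11.30, 10.15, 10.86 and 12.16 after AMPH. For these 3 genes AMPH pool 4 was the highest of the 8 pools, AMPH pool 2 the lowest, and AMPH pool 3 within or next to the EIH range. Bag3 had a different layout. It read 10.23, 8.26, 8.14 and 8.06 after EIH and 9.08, 11.95, 8.55 and 10.19 after AMPH. AMPH pool 2 was the highest of the 8 pools for Bag3, and EIH pool 1 lay just above AMPH pool 4. The Bag3 difference was 1.27 ± 0.71 with all pools and 0.60 ± 0.66 without pool 2.

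Over the heat shock and chaperone list, 18 of 29 genes were higher after AMPH with all pools (median 0.06), 1 of them with an unadjusted p under 0.05 (background 1.99% of all genes). Without pool 2, 24 were higher (median 0.36), 3 had an unadjusted p under 0.05 in that direction (background 1.93% of all genes), and 0 were called. AMPH pool 4 was the highest of the 8 pools for 22 of the 29 genes, and AMPH pool 2 the lowest for 21. Over all 10412 genes these counts were 1134 and 3728. Without AMPH pools 2 and 4 the median was 0.06, with 19 genes higher and 10 lower. The list level was 0.99 in AMPH pool 4, 0.12 in pool 1 and at or just below 0 in pool 3 and the EIH pools, of which the lowest was -0.05.

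The levels of AMPH pool 4 were set beside those of the pools of 3 h, although the arrays of 3 h and 1 day were scaled apart and levels across them carry that difference. In AMPH pool 4, 25 of the 29 chaperone genes were above every saline pool of 3 h and at or above the lowest treated pool of 3 h. The same held for 3303 of all 9869 genes read in that pool. In the other 7 pools of 1 day it held for 2 to 10 of the 29 chaperone genes. Among all genes it held there for between 3208 of 9978 (AMPH pool 3) and 4595 of 10272 (EIH pool 3). In AMPH pool 4, 3327 of all genes were above every saline pool of 3 h, so the second condition removed few genes. By the first condition alone, being above every saline pool of 3 h, the count was 20 to 24 in the EIH pools, 23 in AMPH pool 1, 20 in AMPH pool 3 and 5 in AMPH pool 2, beside 33.3% to 45.7% of all genes over the 8 pools. Hspb1 lay between 13.30 and 15.97 in the 8 treated pools of 3 h and between 11.14 and 11.37 in the saline pools, beside 15.69 in AMPH pool 4. The 3 rat numbers of AMPH pool 4 stand on no array of 3 h, and 1 stands on a blood array labelled AMPH at 1 day.

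**Figure D4:**
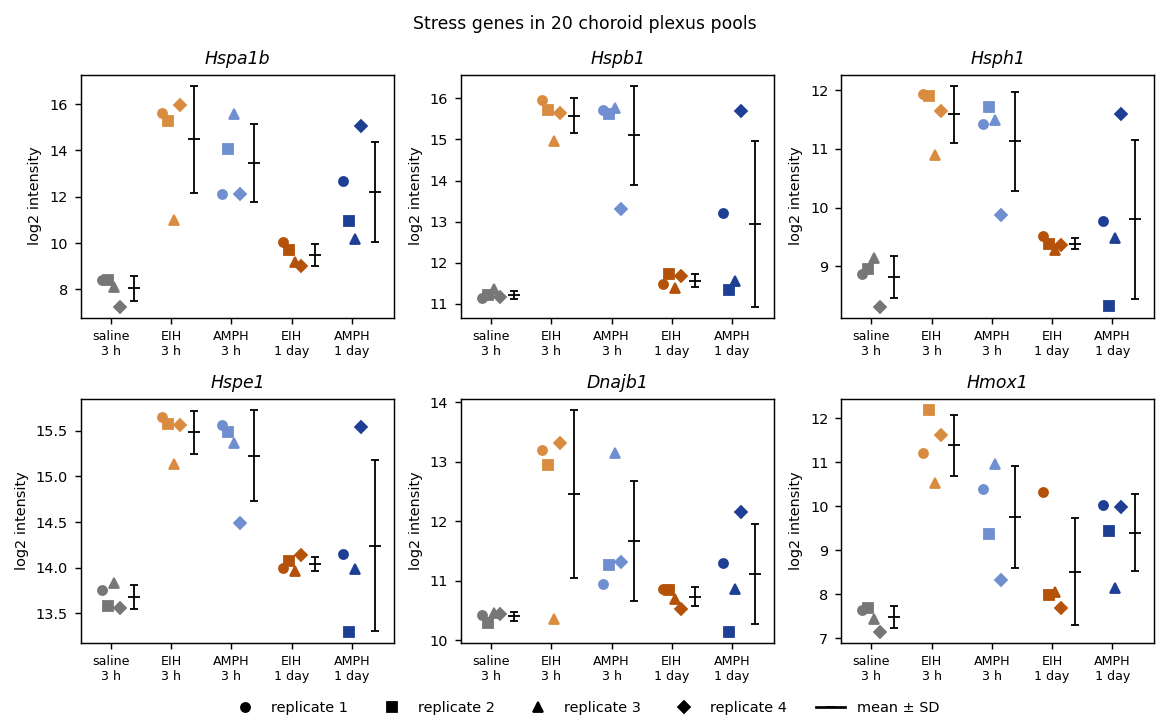
Log2 intensity of 6 stress genes in all 20 choroid plexus pools, with a symbol for each replicate and the group mean ± SD (n = 4) beside it; arrays of 3 h and 1 day were scaled apart. For Hspb1, AMPH pool 4 (15.69) lies in the range of the treated pools of 3 h and AMPH pools 2 and 3 (11.33 and 11.55) in or below the range of the EIH pools of 1 day.

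Hmox1, the heme-degrading enzyme induced by heat and oxidants, was high in AMPH pools 1 and 4, but also in EIH pool 1 and AMPH pool 2. It read 10.32, 7.99, 8.04 and 7.68 after EIH and 10.03, 9.44, 8.15 and 9.98 after AMPH. EIH pool 1 was the highest of all and the groups overlapped, with a difference of 0.90 ± 0.61 with all pools and 0.88 ± 0.68 without pool 2 (limma, adjusted p = 0.906). Leaving out 1 further pool moved it between 0.56 (without AMPH pool 1) and 1.50 (without AMPH pool 3), with 0.58 without AMPH pool 4 and 1.49 without EIH pool 1.

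Protein-folding genes of the ER were also high in AMPH pool 4. Of 25 ER stress genes, 16 were higher after AMPH with all pools (median 0.08) and 23 without pool 2 (median 0.23). AMPH pool 4 was the highest pool for 20 of them, beside 1134 of all 10412 genes. Without AMPH pools 2 and 4, 12 were higher and 13 lower (median -0.02). Creld2, a secreted ER stress protein, read 9.19, 9.54, 9.56 and 9.70 after EIH and 9.60, 8.99, 9.42 and 10.97 after AMPH. Manf, a neurotrophic factor of the ER, read 12.01 to 12.04 after EIH and 12.17, 12.05, 11.76 and 13.70 after AMPH. For Creld2 and Manf AMPH pool 4 alone stood clear of the rest. Trib3, a pseudokinase induced by ER stress and amino acid lack, read 7.20, 7.54, 7.44 and 7.92 after EIH and 8.79, 8.05, 7.64 and 8.91 after AMPH. AMPH pools 1, 2 and 4 exceeded every EIH pool for Trib3, and its difference was 0.82 ± 0.31 with all pools and 0.92 ± 0.34 without pool 2 (limma, adjusted p = 0.891).

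Immediate early genes were higher in AMPH pools 1, 2 and 4. Of 28 genes, 26 were higher after AMPH in both fits, with a median of 0.61 with all pools and 0.37 without pool 2, and 22 of 27 were higher without pool 4 as well (median 0.26). Fos, a transcription factor subunit, read 6.45, 6.61, 5.55 and 5.84 after EIH and 7.50, 7.07, 6.24 and 8.83 after AMPH. AMPH pools 1, 2 and 4 exceeded the EIH pools and pool 3 did not. Nr4a1, an orphan nuclear receptor, read 8.59, 8.92, 8.89 and 8.74 after EIH and 9.77, 8.98, 8.87 and 11.45 after AMPH, with a difference of 0.98 ± 0.64 with all pools, 1.25 ± 0.69 without pool 2 (limma, adjusted p = 0.906) and 0.53 without pool 4 too. Neither gene was called.

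The glucocorticoid targets were led by AMPH pools 1 and 2. Of 28 genes, 21 were higher after AMPH with all pools (median 0.44) and 19 without pool 2 (median 0.26), and the median was 0.04 when AMPH pool 1 was left out too. Fkbp5, a feedback inhibitor of the glucocorticoid receptor, read 9.60, 9.04, 8.55 and 9.03 after EIH and 9.98, 11.42, 9.19 and 9.11 after AMPH. Only AMPH pools 1 and 2 exceeded every EIH pool (difference 0.87 ± 0.41 with all pools and 0.37 ± 0.31 without pool 2). Leaving out a further pool brought it to 0.09 (AMPH pool 1) or 0.20 (EIH pool 3). Cdkn1a, a cell cycle inhibitor, read 11.21, 11.66, 11.51 and 11.39 after EIH and 11.94, 9.40, 11.60 and 12.27 after AMPH. AMPH pools 1 and 4 were above the EIH pools and pool 2 was far below, so that the difference was -0.14 ± 0.41 with all pools and 0.50 ± 0.18 without pool 2 (limma, adjusted p = 0.891), or 0.33 without pool 4 too. Per1, a clock gene that glucocorticoids induce, differed by 0.22 ± 0.30 with all pools and 0.35 ± 0.32 without pool 2.

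Among cytokine genes, 30 of 35 were higher after AMPH with all pools (median 0.36), 4 with an unadjusted p under 0.05 (background 1.99%). Without pool 2, 21 of 34 were higher (median 0.16), 2 with an unadjusted p under 0.05 (background 1.93%), and without AMPH pool 1 too 18 were higher and 16 lower (median 0.03). Cxcl2, a neutrophil attractant, read 4.27, 4.47, 3.62 and 4.23 after EIH and 6.67, 4.45, 5.20 and 6.97 after AMPH. AMPH pools 1, 3 and 4 exceeded every EIH pool, and pool 2 lay within their range. The difference was 1.68 ± 0.76 with all pools and 2.13 ± 0.79 without pool 2 (limma, adjusted p = 0.891), at low intensities. Il1r2, the decoy receptor for interleukin 1, read 4.41, 6.08, 5.00 and 4.10 after EIH and 7.59, 8.30, 5.70 and 7.55 after AMPH. AMPH pools 1, 2 and 4 exceeded the EIH pools and pool 3 fell between EIH pools 2 and 3. Its difference was 2.39 ± 0.68 with all pools (limma, adjusted p = 0.756) and 2.05 ± 0.72 without pool 2. Il1b, the cytokine itself, differed by 1.09 ± 0.44 with all pools and 0.59 ± 0.36 without pool 2, or 0.38 without pool 4 too. Ccl2, a monocyte attractant, differed by 0.43 ± 0.64 with all pools and 0.27 ± 0.71 without pool 2.

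Neutrophil genes had their highest level in AMPH pool 2. S100a9, a calcium-binding protein of neutrophils, read 6.93, 7.41, 6.25 and 6.16 after EIH and 7.82, 11.28, 7.63 and 7.68 after AMPH. All AMPH pools lay above all EIH pools for S100a9, with pool 2 far above the rest, and the difference was 1.92 ± 0.78 with all pools and 1.02 ± 0.64 without pool 2 (limma, adjusted p = 0.906). Of 19 neutrophil genes, 16 were higher after AMPH with all pools (median 0.49) and 13 without pool 2 (median 0.37), and the median was 0.47 without EIH pool 1 too. The 5 neutrophil markers summed to 205 to 431 in the EIH pools, 421 to 483 in AMPH pools 1, 3 and 4 and 4690 in AMPH pool 2, with blanks for 2 of the 5.

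Genes of natural killer and cytotoxic cells were lower after AMPH for 13 of 18 with all pools (median -0.22) and for 15 without pool 2 (median -0.43), 2 of the latter with an unadjusted p under 0.05 (background 3.44%). The median was -0.29 without EIH pool 1 too. Prf1, the pore-forming protein, read 6.21, 4.65, 5.51 and 5.18 after EIH and 3.82, 5.30, 3.45 and 4.64 after AMPH. Without pool 2 the AMPH values lay below the EIH values, AMPH pool 4 barely, and the difference was -1.42 ± 0.46 (limma, adjusted p = 0.891), or -1.09 ± 0.46 with all pools. MHC class II genes were lower for 7 of 13 with all pools (median -0.02) and for 10 without pool 2 (median -0.38). Without EIH pool 1 too, in which the list level was 0.51, 11 of 12 were lower (median -0.13). T cell and B cell genes had medians of 0.11 and 0.06 with all pools and of -0.06 and 0.00 without pool 2. Macrophage genes were higher for 22 of 27 with all pools (median 0.35) and for 10 without pool 2 (median -0.06), and the median was 0.21 without EIH pool 1 too and -0.28 without AMPH pool 1 too. Platelet genes were higher for 4 of 8 with all pools (median 0.13) and lower for 7 without pool 2 (median -0.34). Thbs1, a matrix protein of platelets and stroma, read 5.99, 5.47, 4.92 and 5.67 after EIH and 3.57, 7.26, 4.29 and 3.68 after AMPH. Its AMPH pools 1, 3 and 4 were below all EIH pools while AMPH pool 2 was above them, and the difference was -0.81 ± 0.63 with all pools and -1.67 ± 0.42 without pool 2 (limma, adjusted p = 0.846).

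Genes whose groups did not overlap numbered 341 of 10204 (3.34%) with all pools, 137 (1.34%) higher and 204 (2%) lower after AMPH. Without AMPH pool 2 they were 736 of 10076 (7.3%), 257 (2.55%) higher and 479 (4.75%) lower. With fewer pools, groups are more often apart by chance, so the rise in this share cannot be read as an effect of leaving out pool 2. Blanks were passed over, so a gene could count with only 2 values in a group. Among the genes without overlap, those of lowest p were named by rule, and none passed. Nat3, an arylamine N-acetyltransferase, was the first of the higher genes with all pools. It read 4.27, 4.55, 4.20 and 5.51 after EIH and 7.68, 9.41, 8.72 and 8.20 after AMPH. The groups were well apart, with a difference of 3.87 ± 0.82 with all pools (limma, adjusted p = 0.756) and 3.57 ± 0.89 without pool 2. The saline pools of 3 h ranged from 4.35 to 9.16 for Nat3, which overlaps both groups.

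Brip1, a DNA helicase of the Fanconi pathway, had a low p in both fits. It read 5.88, 5.72, 5.65 and 5.44 after EIH and 6.87, 6.17, 6.90 and 6.60 after AMPH. The AMPH pools all lay above the EIH pools, and the difference was 0.96 ± 0.21 with all pools and 1.12 ± 0.21 without pool 2 (limma, adjusted p = 0.304), whereas another probe of the gene gave -0.75. Fabp4, the fatty acid carrier of fat cells and macrophages, read 5.88, 5.24, 4.33 and 5.18 after EIH and 7.14, 7.59, 6.22 and 6.33 after AMPH. All AMPH pools were above all EIH pools, and the difference was 1.66 ± 0.38 with all pools and 1.40 ± 0.39 without pool 2 (limma, adjusted p = 0.891). Igll1, a part of the surrogate light chain of B cell precursors, read 4.48 to 4.82 after EIH and 6.05, 7.98, 5.85 and 5.80 after AMPH, again without overlap (difference 1.73 ± 0.44 with all pools and 1.21 ± 0.34 without pool 2).

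Among the lower genes, Col7a1, the collagen of anchoring fibrils, read 6.45, 5.67, 6.00 and 5.84 after EIH and 4.63, 6.57, 4.60 and 3.68 after AMPH. AMPH pools 1, 3 and 4 lay below the EIH pools and AMPH pool 2 above them, with a difference of -1.12 ± 0.45 with all pools and -1.69 ± 0.32 without pool 2 (limma, adjusted p = 0.338). Kcnj12, an inward rectifier potassium channel, read 7.57, 8.90, 7.46 and 7.45 after EIH and 6.45, 8.23, 6.33 and 6.52 after AMPH. It was lower in AMPH pools 1, 3 and 4 than in every EIH pool (difference -0.96 ± 0.40 with all pools and -1.41 ± 0.33 without pool 2, limma, adjusted p = 0.846). Tnfsf9, a costimulatory ligand of T cells, differed by -0.79 ± 0.32 with all pools and -1.14 ± 0.27 without pool 2, again with AMPH pools 1, 3 and 4 below every EIH pool. Arsk, a lysosomal sulfatase, differed by -0.65 ± 0.18 with all pools, without overlap, and by -0.68 ± 0.20 without pool 2, although another probe gave 0.16. Trim13, an ubiquitin ligase of the ER, differed by -1.21 ± 0.31 with all pools and -1.03 ± 0.33 without pool 2. Mak, a kinase of cilia, differed by -0.62 ± 0.17 and -0.46 ± 0.15, and neither gene overlapped between the groups.

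**Figure D5:**
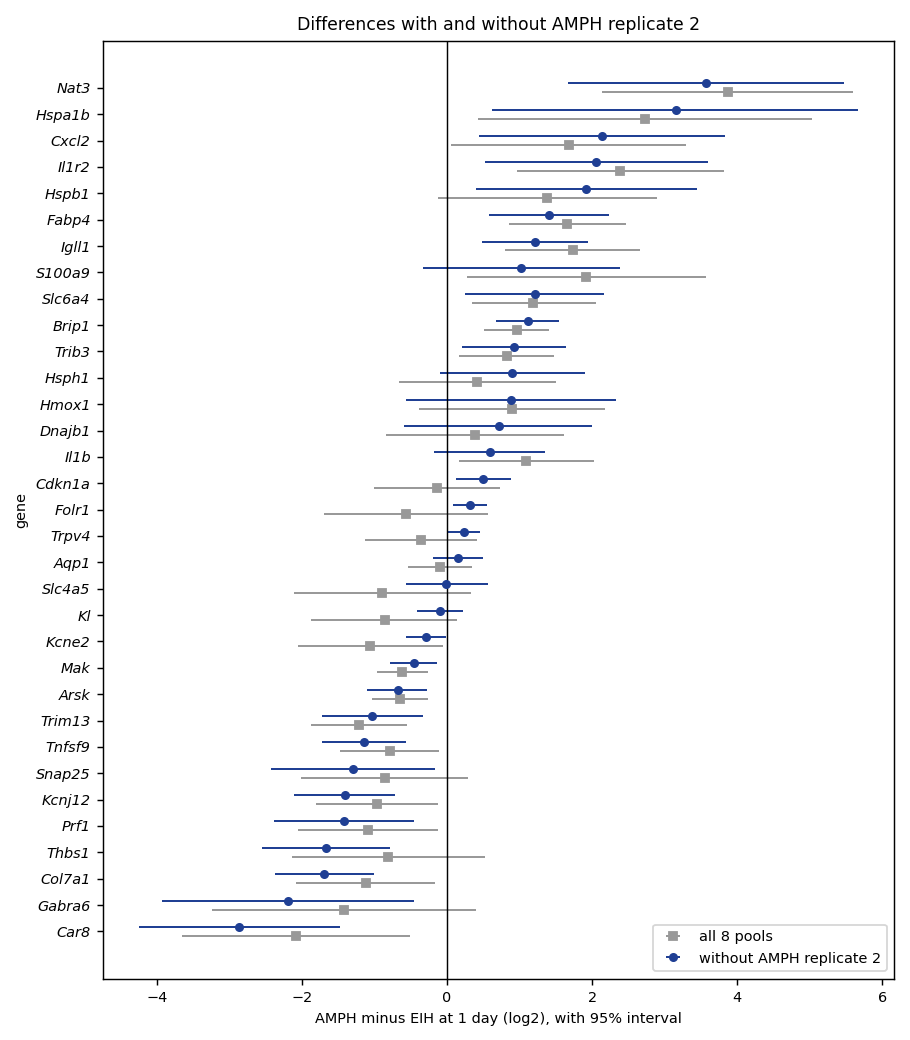
AMPH minus EIH at 1 day for 33 genes, in log2 units, with 95% intervals from limma, with all 8 pools (grey squares) and without AMPH pool 2 (blue circles). No gene passed after adjustment; the difference of Folr1 turns from -0.56 to 0.31 and that of Cdkn1a from -0.14 to 0.50 when AMPH pool 2 is left out.

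Transport, barrier, metabolic and ribosomal lists had medians close to 0 once AMPH pool 2 was left out. The median was -0.05 for fluid secretion and ion transport, -0.07 for barrier junctions and efflux transporters, -0.00 for the respiratory chain, -0.07 for ribosomal proteins, -0.04 for cholesterol synthesis, 0.11 for fatty acid oxidation, 0.02 for hypoxia and glycolysis and 0.05 for metallothionein and oxidative stress genes. With all pools the medians of these lists, other than the respiratory chain and ribosomal proteins given next, were -0.36, -0.20, -0.24, -0.07, -0.19 and -0.08 in the same order. Called genes numbered 0 in each list. Without AMPH pool 2 and EIH pool 1, 36 of 44 respiratory chain genes were lower (median -0.07). The same held for 23 of 25 cholesterol genes (median -0.15), beside 6205 of all 10042 genes (median -0.06). The other lists named here had medians from -0.15 to 0.00 in that run. With all pools, 43 of 44 respiratory chain genes were lower (median -0.25) and 49 of 55 ribosomal protein genes higher (median 0.13) after AMPH. AMPH pool 2 was the lowest pool for 43 of the former and the highest for 49 of the latter. Over all 10412 genes it was the lowest for 3728 and the highest for 2755. Among monoamine genes, Slc6a4, the serotonin transporter, read 5.14, 5.47, 6.08 and 6.42 after EIH and 6.43, 6.93, 6.68 and 7.84 after AMPH. The groups did not overlap but nearly touched, and the difference was 1.19 ± 0.40 with all pools (limma, adjusted p = 0.756) and 1.21 ± 0.45 without pool 2, or 0.78 without pool 4 too, with another probe at -0.28. Adra2c, an inhibitory adrenergic receptor, read 9.41, 8.28, 8.30 and 8.17 after EIH and 7.45, 9.89, 7.93 and 5.70 after AMPH. EIH pool 1 stood above the other EIH pools, AMPH pool 2 was the highest of all and AMPH pool 4 the lowest. The difference was -0.80 ± 0.59 with all pools, -1.51 ± 0.46 without pool 2 (limma, adjusted p = 0.891) and -0.85 without pool 4 too.

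Finally, the AMPH minus EIH difference at 1 day was set against that at 3 h, for which AMPH and EIH pools of 3 h are separate arrays, although 1 rat number stands on both EIH pool 3 of 1 day and AMPH pool 2 of 3 h and another on both EIH pool 4 of 1 day and EIH pool 2 of 3 h. The difference between times passed for 2 of 10130 genes (0.0197%) with all pools and for the same number of 10020 (0.02%) without AMPH pool 2 in limma. An unadjusted p under 0.05 was reached by 312 genes (3.08%) with all pools, of which the difference was higher at 1 day for 1.28% of all genes and lower for 1.8%. Without AMPH pool 2 it was reached by 337 genes (3.36%), higher for 1.13% and lower for 2.24%. Both called genes, Piwil1 and Serpini2, had blanks. Piwil1, a germline small-RNA protein, was read at 14.19 and 14.67 at 3 h in the 2 AMPH pools that had a value and at 5.80 or less in the pools of 1 day. Serpini2, a protease inhibitor, had a value in 2 of 4 AMPH pools of 1 day. The difference between times was -11.94 ± 0.86 for Piwil1 (limma, adjusted p = 0.000258) and 3.32 ± 0.44 for Serpini2 (adjusted p = 0.034) with all pools. The count was 0 among genes without blanks, which left out both called genes. It was also 0 without EIH pool 1 or 2 of 1 day and without AMPH pool 3 or 4 of 3 h. Piwil1 had values in only 2 EIH pools of 1 day and 2 AMPH pools of 3 h. With any of these left out it had under 2 values in a group and was not tested. Those runs therefore cannot show whether its call holds. Serpini2 in turn was not tested without AMPH pool 1 or AMPH pool 3 of 1 day. The count was 1, Piwil1, without EIH pool 3, AMPH pool 1 or AMPH pool 3 of 1 day, without EIH pool 1 or 4 or AMPH pool 1 or 2 of 3 h, and with compared pools that share no rat number. With the compared groups fitted alone it was 3 with all pools, Cd226 being the further gene (adjusted p = 0.0459), and 2 without AMPH pool 2. Chaperone genes had a larger AMPH minus EIH difference at 1 day than at 3 h for 20 of 29 genes with all pools (median 0.28, against -0.08 over all genes) and for 25 without pool 2 (median 0.52, against -0.04 over all genes), 4 of the latter with an unadjusted p under 0.05 and 0 called. Without AMPH pool 2, the median difference of the chaperone genes at 1 day was 0.36, and it was 0.06 without AMPH pool 4 as well. The difference between times was not summarised for this list without AMPH pool 4 of 1 day. Hspb1 and Hspa1b reached 15.97 and 15.98 in EIH pools of 3 h, the top of the scale, so their differences at 3 h, and those between times, cannot be read in full. Hmox1 differed between times by 2.52 ± 0.86 with all pools (limma, adjusted p = 0.959) and 2.51 ± 0.93 without pool 2 (adjusted p = 1) in this sense.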

How the data were processed

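Per the labels' protocols, RNA came from a Tri Reagent extraction, and Cy3 was the only dye (Agilent Quick Amp). The authors deposited 1 linear intensity per probe and array (14055 probes, 44 arrays), already scaled, with blanks; scanner software and normalization: not given in the sources used here. Arrays of 3 h and of 1 day had medians near 142 and 168 and so were scaled apart. Intensities were taken to log2, and each of 10412 genes was represented by its probe of highest mean. limma 3.58.1 (R 4.3.3) took the group means of all 20 choroid plexus arrays, or of 19 without AMPH pool 2, on genes with at least 2 values in each compared group, and p-values were adjusted by Benjamini-Hochberg over all genes tested (threshold 0.05). The steps were tested on simulated data. Tables and figures used Python 3.11.15, pandas 2.3.3, numpy 2.4.6 and matplotlib 3.10.9.

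The genes named are, for each fit, those called and separated between groups, filled to 5 a direction by the lowest p, up to 4 members of each list by the lowest p, and a fixed set. Members and lists were chosen with earlier results of these data known, and the bone and cerebellum lists were added after values were seen. Alternatives varied the scaling, the filters, the blanks, the array weights and the pools, leaving each out in turn.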

Additional observations from a re-analysis of the deposited data

Results flagged for a closer look

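Among 152 groups of 4 values, 24 had 1 pool far from the other 3, measured as its gap to the nearest pool over the range of the group. Chance alone would mark about 1 in 20 groups if they were independent and picked without sight of their values. These groups were the lists and genes of the text, many of them chosen from these values, so that rate does not apply. AMPH pool 2 accounted for 18 of the 24. It was the lowest AMPH pool for the epithelium list (0.997), fluid secretion (0.957), motile cilia (0.831), hypoxia and glycolysis (0.892) and the respiratory chain (0.986), and the highest for neutrophil (0.853), MHC class II (0.853), erythroid (0.925), stroma (0.849) and ribosomal protein genes (0.977). By gene it was the lowest for Kl (0.910), Folr1 (0.960), Kcne2 (0.901), Trpv4 (0.953) and Mak (0.937), and the highest for S100a9 (0.947), Igll1 (0.884) and Kcnj12 (0.899).

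EIH pool 1 stood apart in 5 groups of values. It was the highest EIH pool for acute phase and complement genes (0.920), stroma genes (0.984), Hmox1 (0.864) and Adra2c (0.894), and the lowest for the respiratory chain (0.942). EIH pool 2 was the highest for Kcnj12 (0.914).

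The AMPH minus EIH difference was unlike at 1 day and 3 h for Piwil1 (-11.94) and Serpini2 (3.32), by the limma test of the difference between times. Both genes had blank arrays.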

How the results depend on the processing

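The count of called genes at 1 day was 0 under each alternative run, with all pools and without AMPH pool 2, except with array weights, where it was 3 in both; leaving out any 1 pool gave 0 to 0. The count for the difference between times, 2 in both fits, was 1 without the 25% of genes of lowest mean, 1 with an intensity trend and robust spread, 1 without EIH pool 3 and AMPH pool 2 of 1 day, and 1 with compared pools that share no rat number, which leaves out EIH pool 2 of 3 h as well and was chosen after seeing the data. With the compared groups fitted alone it was 3 with all pools and 2 without AMPH pool 2. It was 0 with genes without blanks, which left out both called genes, and 0 with blanks at the lowest value of the array. Leaving out any 1 pool gave 0 to 2 in both fits, and some of these runs left a called gene with too few values to be tested. Without AMPH pool 2 and EIH pools 1 and 2 together, an alternative chosen after seeing the data, it was 0, with Piwil1 not tested.

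By gene, 11 of the differences turned, all of them uncalled. The run without EIH pool 3 and AMPH pool 2 was entered again under another name, so a turn there is counted again. With AMPH pool 2 put back, Folr1 went to -0.56, Trpv4 to -0.36, Cdkn1a to -0.14 and Aqp1 to -0.10. Leaving out 1 further pool moved Aqp1 between -0.03 and 0.24, Kl between -0.19 and 0.01 and Slc4a5 between -0.16 and 0.28. The 0.01 of Kl was its value without EIH pool 3 and AMPH pool 2, and Slc4a5 was 0.06 with array weights. The cause was not tested. No paired analysis was possible because the labels give the pools no replicate numbers.

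The number of arrays, 4 a group, limits the precision, and probes at the top of the intensity scale can show no change.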
